A study of Mus musculus with 9 samples.

Results

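Heat shock proteins and J-domain chaperones were taken from whole-eye expression tables of 3 inbred mouse strains, as every gene whose symbol begins with Hsp and a further letter, or with Dnaj. This pattern found 61 genes. The 3 genes of the Hsp90 family (Hsp90aa1, Hsp90ab1 and Hsp90b1) are heat shock proteins whose symbols the pattern's letters miss, and they were added and are counted apart. That makes 64 of the 13089 genes listed, namely 13 Hspa genes, 7 Hspb genes, 3 Hsp90 genes, 5 other Hsp genes, 4 Dnaja genes, 9 Dnajb genes and 23 Dnajc genes. They are called chaperone genes here, although the pattern also takes in genes that are no chaperones. Hspg2 encodes perlecan, a heparan sulfate proteoglycan of basement membranes, Hspb11 encodes the intraflagellar transport protein Ift25, and Hspbap1 encodes a protein that binds a small heat shock protein.

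The series set 3 mouse backgrounds, whose retinas degenerate at different rates, against each other. Groups were A/J and BALB/c, both albino, and the pigmented C57BL/6J, all wild type, female and 4 weeks old, with no treatment. Poly(A) RNA of whole eyes was sequenced in 3 libraries per strain, 9 in all, and each library was made from RNA pooled over 5 mice. Libraries are named by strain and replicate number. Nothing in the labels shows that a strain's libraries came from separate pools, so p-values reflect the spread between libraries, which could be technical. In RNA of a whole eye, fewer cells of a type and less RNA per cell cannot be told apart.

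Chaperones of the Hsp70 family (Hspa genes) bind unfolded stretches of protein and release them in a cycle driven by ATP. J-domain proteins (Dnaj genes) bring substrates to an Hsp70 and start its ATP hydrolysis, and Hsp110-type proteins exchange the nucleotide afterwards. Hsp90 completes the folding of kinases and receptors, small heat shock proteins (Hspb genes and the alpha crystallins of the lens) hold unfolded proteins without ATP, and Hsp60 with Hsp10 forms a folding chamber in mitochondria. In the eye, photoreceptors make large amounts of opsin in the endoplasmic reticulum (ER), and the lens keeps its proteins for life.

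Values are RPKM as deposited, that is reads scaled by transcript length and by the mapped reads of the library, a unit read from the values themselves. The depth of the libraries is unknown, so no counting interval can be given. The RPKM of all listed genes summed to 511888 to 599635 per library, of which crystallins took 29.6% to 50.1%. Marker lists of lens, rods, cones, extraocular muscle, surface epithelium, pigment epithelium, myelin and endothelium had no gene at 0 in any library, and 2 of 3 blood markers were at 0 in at least 1 library. The first principal component took up 49.1% of the variance. A/J 1 and A/J 2 scored -42.4 and -51.4 on it and C57BL/6J 3 scored 56.4, whereas the other 6 libraries lay between -7.8 and 14.8.

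All 64 genes were measured above 0 in every library. Hsp90ab1, the constitutive cytosolic Hsp90, had the highest mean over the 9 libraries at 307.43 RPKM. It was followed by Hspa5 (the ER Hsp70, BiP) at 140.92 RPKM, Hsp90b1 (the ER Hsp90, Grp94) at 129.89 RPKM and Hspb1 at 106.19 RPKM. Of the 64 genes, 11 had a mean of at least 50 RPKM and 50 had a mean of at least 10 RPKM, and the median of the means was 16.84 RPKM. The lowest was Dnajb3, which ranged over 0.42 to 1.64 RPKM and was the only one not tested, because it did not reach 1 RPKM in 3 libraries. Summed over each subfamily, Hsp90 transcripts ranged over 412.6 to 654.3 RPKM in A/J, 491.3 to 510.0 RPKM in BALB/c and 417.4 to 580.4 RPKM in C57BL/6J. The 7 Hspb genes summed to 172.9 to 188.9 RPKM in A/J, 237.7 to 276.6 RPKM in BALB/c and 208.0 to 318.1 RPKM in C57BL/6J. A/J thus had the lowest sums in every library. Hspb1, the highest of the 7, was itself lowest in A/J, so the sum does not describe the other Hspb genes. The 23 Dnajc genes together gave 404.2 to 476.2 RPKM in A/J, 417.5 to 454.4 RPKM in BALB/c and 434.2 to 498.0 RPKM in C57BL/6J, with all strains overlapping.

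Few chaperone genes were called different between the strains with all 9 libraries. Differences were tested with limma on log2(scaled RPKM + 0.5) over all 12920 genes that passed the filter, and a gene was called at a Benjamini-Hochberg adjusted p under 0.05. In A/J against C57BL/6J eyes, 2 of 63 tested chaperone genes (3.17%) were called, against 2.69% of all genes. Both were lower in A/J, Hspa8 and Dnajc10, where 1.62% of all genes were called lower and 1.08% higher. In BALB/c against C57BL/6J eyes, 2 of 63 (3.17%) were called, against 3.09% of all genes. Hspe1 was higher and Hspa8 lower in BALB/c, with 1.93% of all genes called higher and 1.15% lower. In A/J against BALB/c eyes, 3 of 63 (4.76%) were called, all of them lower in A/J (Hspa8, Dnajc10 and Hspb1), against 2.48% of all genes in either direction, 1.9% lower and 0.573% higher. A single gene is 1.59% of 63, so these shares lie near those of all genes, and the remaining 59 tested genes were called in no comparison.

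The counts depended on A/J 3. On the first principal component A/J 1 and A/J 2 scored -42.4 and -51.4, whereas A/J 3 scored 7.3, among the other strains. Calls gained without A/J 3 rest on A/J 1 and A/J 2 alone, and which A/J libraries are typical of the strain was not tested. Without A/J 3, 17 chaperone genes were called in A/J minus C57BL/6J (12 higher and 5 lower) and 23 in A/J minus BALB/c (11 higher and 12 lower). In BALB/c minus C57BL/6J there were 4, where the only part of A/J 3 is in the pooled spread. These are 27.0%, 36.5% and 6.35% of the 63 genes, next to 28.3%, 34.7% and 4.95% of all genes tested. Leaving out C57BL/6J 3 gave 4 calls in A/J minus C57BL/6J, 2 calls in BALB/c minus C57BL/6J and 5 calls in A/J minus BALB/c (6.35%, 3.17% and 7.94%, next to 2.51%, 3.3% and 4.69% of all genes). With both of these libraries left out, the counts in that order were 28, 14 and 39, which are 44.4%, 22.2% and 61.9% of the chaperone genes, next to 39.7%, 14.9% and 59.9% of all genes. In BALB/c minus C57BL/6J the count was 1 (1.59%) with A/J 1, A/J 2, C57BL/6J 1 or any 1 BALB/c library left out. It was also 1 with values as deposited or with the replicate block. Over all genes, 1.28% to 3.08% were called in these settings. After correction for GC content the count was 4 (6.35%), next to 4.54% of all genes. A/J minus BALB/c gave 2 calls (3.17%) with A/J 1, A/J 2, C57BL/6J 1 or any 1 BALB/c library left out. Of all genes, 0.82% to 2.12% were then called. An unadjusted p under 0.05 was found for 8 of the 63 genes in A/J minus C57BL/6J, for 9 in BALB/c minus C57BL/6J and for 12 in A/J minus BALB/c. These are 12.7%, 14.3% and 19.0%, next to 17.5%, 13.8% and 20.9% over all genes. For genes that were not called, the 95% interval reached from 0.26 to 0.9 to either side of the log2 change. The median reach was 0.43. These intervals are not adjusted for the number of genes tested, so they are no limit of detection. Changes larger than that median also went without a call, such as 0.85 for Dnajc2 in A/J minus C57BL/6J (limma adjusted p = 0.127).

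**Figure D1:**
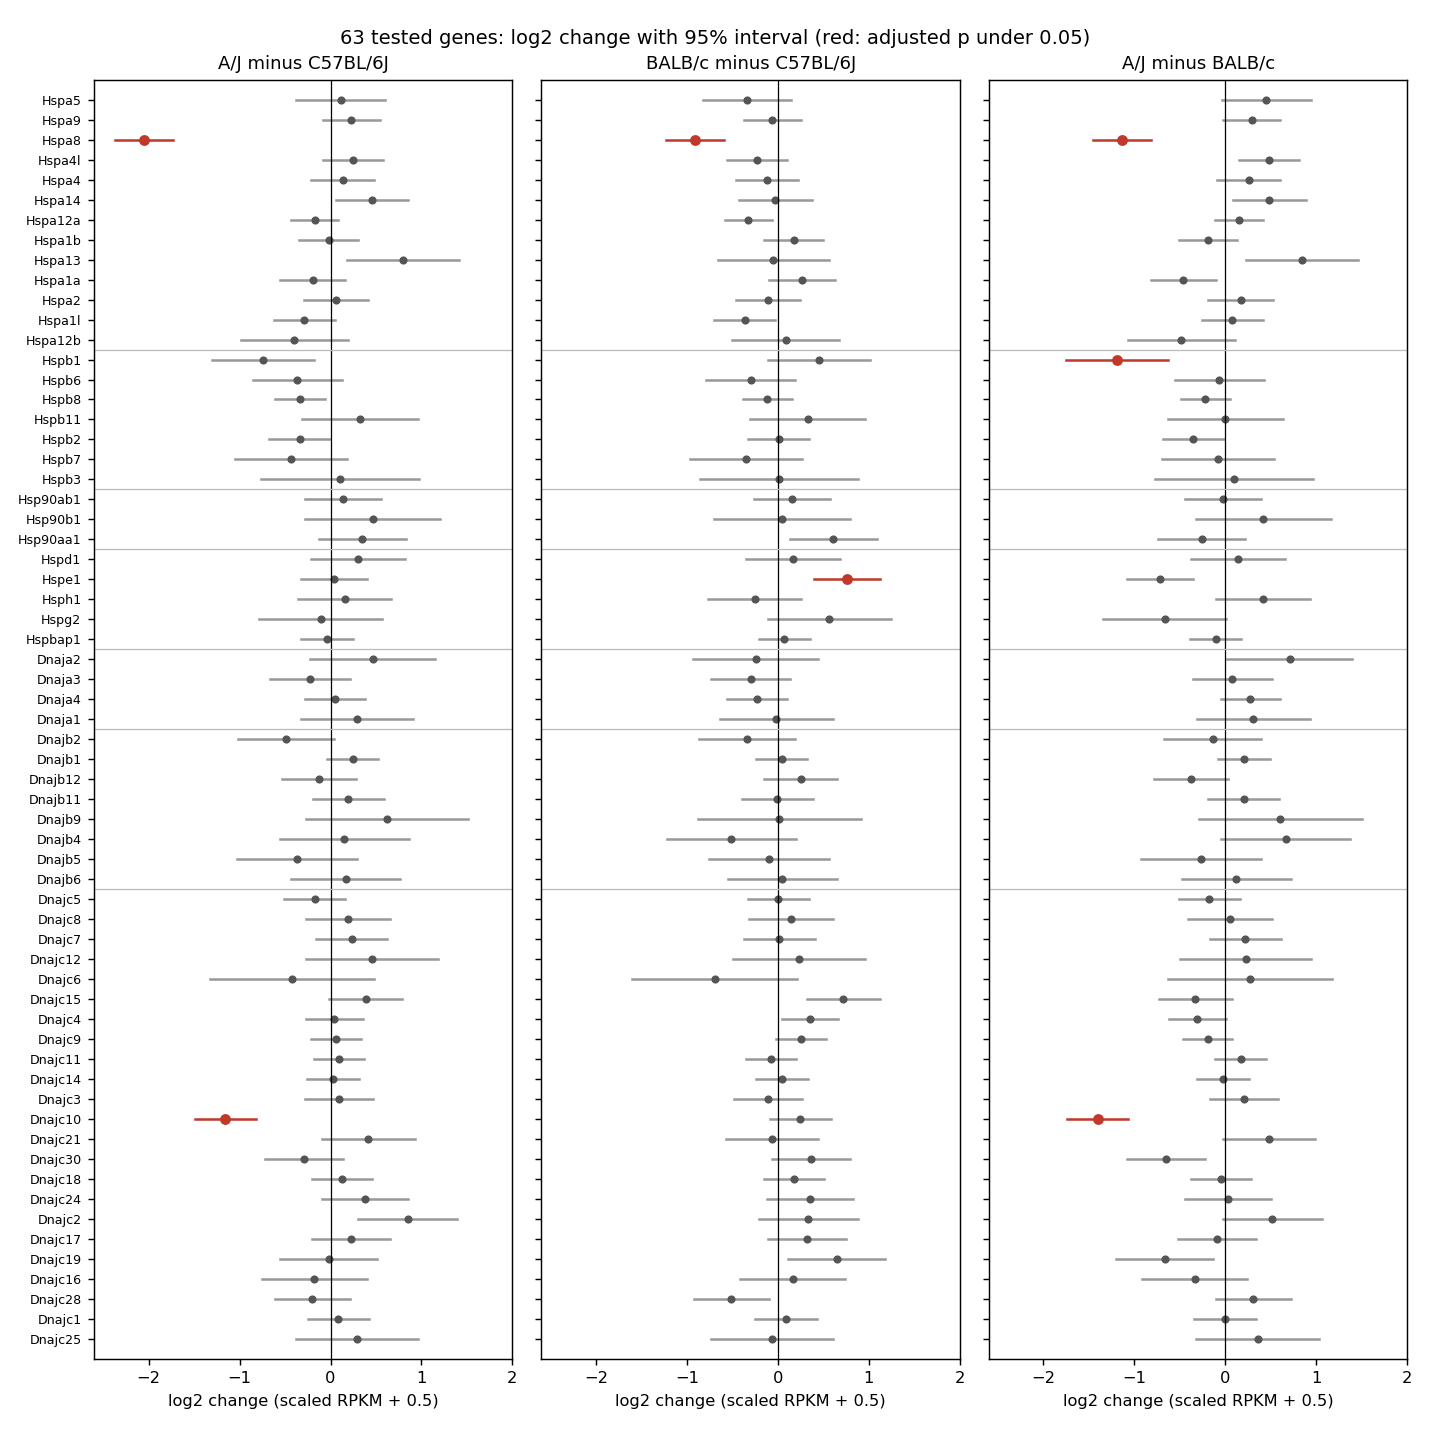
Log2 change (log2 scaled RPKM + 0.5) of each of 63 tested genes with its 95% interval from limma, in 1 panel per comparison (A/J minus C57BL/6J at the left, A/J minus BALB/c at the right), grouped by subfamily and ordered by mean level. Red marks the genes with an adjusted p under 0.05, which are Hspa8 in all 3 comparisons, Dnajc10 in both with A/J, Hspe1 in BALB/c minus C57BL/6J and Hspb1 in A/J minus BALB/c.

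Taken over all 63 genes, the log2 changes centred near 0. Their median was 0.09 in A/J minus C57BL/6J, against -0.01 over all genes, with 39 values above 0 and 24 below. In BALB/c minus C57BL/6J the median was 0.01, against -0.01 over all genes. For A/J minus BALB/c it was 0.05, against -0.01 over all genes. On scaled values the 3 libraries of each strain did not overlap for 2 chaperone genes above and 5 below in A/J minus C57BL/6J, where 8.44% of all genes were separated upward and 7.95% downward. In BALB/c minus C57BL/6J they were separated for 9 genes above (all genes 13.4%) and 7 below (all genes 11.7%), and in A/J minus BALB/c for 7 above (all genes 15.6%) and 11 below (all genes 13.6%).

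Hspa8 differed most. It encodes Hsc70, the constitutive cytosolic Hsp70, which folds new proteins and strips clathrin from vesicles. Hspa8 was at 19.67, 18.28 and 16.05 RPKM in A/J, at 33.79, 41.39 and 39.92 RPKM in BALB/c, and at 87.09, 75.2 and 84.33 RPKM in C57BL/6J. Every A/J library lay below every BALB/c library, and every BALB/c library lay below every C57BL/6J library. Its level was lower in A/J than in C57BL/6J by 4.15-fold (log2 change -2.05, SE 0.14, adjusted p = 7.48e-05). Against the same C57BL/6J libraries it was lower in BALB/c by 1.885-fold (log2 change -0.91, SE 0.14, adjusted p = 0.00809). A/J was below BALB/c by 2.202-fold (log2 change -1.14, SE 0.14, adjusted p = 0.00343).

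These calls for Hspa8 were kept in all 21 alternative settings in each comparison. In A/J minus C57BL/6J the log2 change ranged from -2.24 to -1.96 over them. Of the 31-base stretches (31-mers) of Hspa8 transcripts, 73.9% also occurred at 16 other annotated loci, 14 of them pseudogenes, and the processed pseudogene Gm15459 alone held 68.9%. How reads that match several loci were counted is not given in the sources used here, and the reads were mapped to mm9, a C57BL/6J genome. The part of shared sequence in the Hspa8 difference was not tested.

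**Figure D2:**
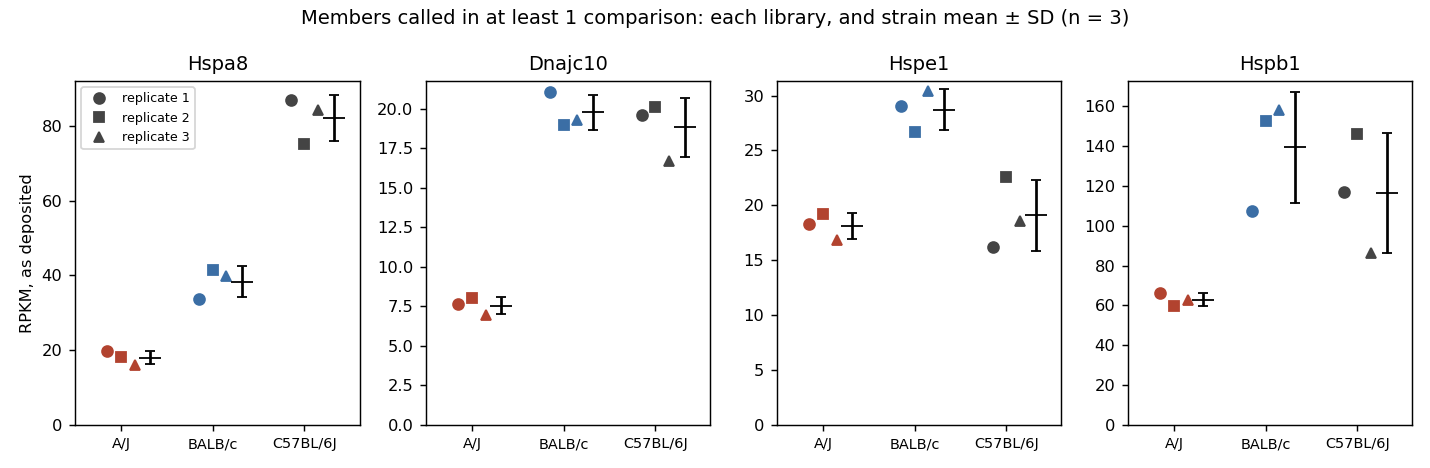
RPKM as deposited in each library (points, shaped by replicate number) with the mean ± SD of each strain (n = 3), for the 4 genes called in at least 1 comparison. Hspa8 steps up from A/J through BALB/c to C57BL/6J, Dnajc10 is low in A/J alone, Hspe1 is high in BALB/c and Hspb1 is low in A/J.

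The stress-inducible Hsp70 genes did not follow Hspa8. Hspa1a and Hspa1b encode nearly the same inducible cytosolic Hsp70 from neighbouring genes. Hspa1a was at 7.75, 6.91 and 9.48 RPKM in A/J, at 9.01, 11.85 and 11.34 RPKM in BALB/c, and at 9.42, 8.81 and 11.9 RPKM in C57BL/6J. A/J and C57BL/6J overlapped, and on scaled values all A/J libraries lay below all BALB/c libraries (log2 change -0.46, adjusted p = 0.174, not called). Hspa1b was at 15.6, 14.66 and 15.49 RPKM in A/J, at 14.55, 18.3 and 17.41 RPKM in BALB/c, and at 17.97, 13.53 and 19.15 RPKM in C57BL/6J, with all strains overlapping (adjusted p from 0.416 to 0.932). Hspa1a shared 63.8% of its 31-mers with Hspa1b, and Hspa1b shared 67.7% with Hspa1a, so how reads were divided between them is uncertain. Their sum was 21.57 to 24.97 RPKM in A/J, 23.56 to 30.15 RPKM in BALB/c and 22.34 to 31.05 RPKM in C57BL/6J. It too depends on how reads that match both genes were counted.

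The likeness of the pair reaches into their promoters. Windows from 250 bases before to 50 bases after the annotated start, on the RefSeq annotation of GRCm38.p6, were found for 52 of the 64 genes. No window was found for Hspa8, Hspa9, Hspa13, Hsp90aa1, Hsp90ab1, Hspb2, Dnajc2, Dnajc5, Dnajc11, Dnajc12, Dnajc18 and Dnajc30. GRCm38.p6 is another build than mm9, to which the expression values belong, and serves here for sequence only. The Hspa1a window (chr17:34972107-34972406, minus strand) and the Hspa1b window (chr17:34959189-34959488, minus strand) differ at 4 of 300 bases, an identity of 98.7%. They are shown because they are the closest copies among these genes, and capitals mark the differing bases.
Hspa1a: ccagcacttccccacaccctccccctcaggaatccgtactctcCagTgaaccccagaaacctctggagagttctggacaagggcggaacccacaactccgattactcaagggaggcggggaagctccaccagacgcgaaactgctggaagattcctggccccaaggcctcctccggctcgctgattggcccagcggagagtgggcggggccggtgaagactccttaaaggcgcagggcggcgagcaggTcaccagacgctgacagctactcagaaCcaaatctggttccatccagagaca
Hspa1b: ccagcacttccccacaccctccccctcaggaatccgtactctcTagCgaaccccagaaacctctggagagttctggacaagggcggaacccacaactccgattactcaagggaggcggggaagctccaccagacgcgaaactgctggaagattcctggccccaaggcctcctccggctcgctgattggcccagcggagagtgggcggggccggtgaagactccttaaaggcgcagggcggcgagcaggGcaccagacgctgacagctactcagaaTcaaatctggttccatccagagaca
Both windows hold the letters GAANNTTC, the head-to-head pair of units of a heat shock element, the site that heat shock factor Hsf1 binds. These letters stood in a window of 12 of the 52 genes and in 7.86% of 32851 windows of all genes, searched on both strands. A gene with several windows counted once, whereas the percentage counts every window, so these are not like shares.

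No other Hsp70 gene of the cytosol was called. Hspa2 and Hspa1l, both best known from the testis, ranged over 3.05 to 4.38 RPKM and 2.17 to 4.08 RPKM. Hspa12a, a distant relative of Hsp70, was at 15.66 to 19.07 RPKM in A/J, 14.47 to 15.78 RPKM in BALB/c and 20.31 to 23.79 RPKM in C57BL/6J. On scaled values C57BL/6J lay above both other strains in every library (log2 changes -0.17 for A/J and -0.32 for BALB/c, each minus C57BL/6J), without a call (adjusted p = 0.384 and 0.229). Hspa12b, known from endothelium, ranged over 0.99 to 2.66 RPKM. Hspa14, which works on ribosomes with Dnajc2, was at 32.1, 38.14 and 25.07 RPKM in A/J, at 23.47, 19.43 and 20.92 RPKM in BALB/c, and at 26.87, 23.11 and 23.65 RPKM in C57BL/6J. Its partner Dnajc2 was at 16.57, 18.32 and 9.99 RPKM in A/J, at 10.58, 9.77 and 8.35 RPKM in BALB/c, and at 9.97, 7.92 and 7.58 RPKM in C57BL/6J. In both genes A/J 1 and A/J 2 stood above all other libraries and A/J 3 did not stand with them. For A/J minus C57BL/6J the log2 changes were 0.46 for Hspa14 (adjusted p = 0.249) and 0.85 for Dnajc2 (adjusted p = 0.127). Without A/J 3 both were called. Dnajc2 was also called with the replicate block and after GC correction.

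None of the Hsp110-type exchange factors, Hspa4, Hspa4l and Hsph1, was called. Hspa4l was at 44.35, 45.58 and 36.0 RPKM in A/J, at 29.59, 27.24 and 28.13 RPKM in BALB/c, and at 38.94, 38.79 and 35.77 RPKM in C57BL/6J. The BALB/c libraries were the lowest 3 of the 9 in Hspa4l as deposited, but after scaling C57BL/6J 3 lay among them. The A/J minus BALB/c log2 change of 0.49 had an adjusted p of 0.138. Hspa4 was at 30.82, 30.34 and 23.3 RPKM in A/J, at 23.21, 21.83 and 21.7 RPKM in BALB/c, and at 28.36, 27.76 and 26.28 RPKM in C57BL/6J. Hsph1 was at 21.03, 20.26 and 13.29 RPKM in A/J, at 13.0, 12.86 and 12.07 RPKM in BALB/c, and at 20.97, 17.18 and 14.11 RPKM in C57BL/6J. In both of these genes A/J 3 stood apart from A/J 1 and A/J 2.

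None of the 3 Hsp90 genes was called by limma, and 1, Hsp90aa1 in BALB/c minus C57BL/6J, had an unadjusted p under 0.05. Hsp90ab1 was at 356.28, 320.29 and 262.1 RPKM in A/J, at 274.69, 326.64 and 304.15 RPKM in BALB/c, and at 361.26, 290.73 and 270.71 RPKM in C57BL/6J, with full overlap (adjusted p from 0.649 to 0.942). Hsp90aa1, the stress-inducible cytosolic Hsp90, was at 95.03, 86.04 and 56.28 RPKM in A/J, at 94.24, 84.59 and 86.17 RPKM in BALB/c, and at 72.87, 63.79 and 59.84 RPKM in C57BL/6J. BALB/c lay above C57BL/6J in every library (log2 change 0.61, SE 0.21, adjusted p = 0.216), and the A/J libraries spanned both. Hsp90aa1 was called in that comparison without A/J 3, without both A/J 3 and C57BL/6J 3, and after GC correction with or without the replicate block. It shared 54.1% of its 31-mers with other loci, chiefly the pseudogenes Gm12346 (49.0%) and Gm5844 (39.6%). Hsp90ab1 shared 15.5%.

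Among small heat shock proteins, Hspb1 was the exception. It encodes Hsp25 (Hsp27 in humans), a stress-inducible holdase known from muscle and epithelia. Hspb1 was at 66.23, 59.53 and 62.78 RPKM in A/J, at 107.3, 152.58 and 158.17 RPKM in BALB/c, and at 117.07, 146.05 and 86.03 RPKM in C57BL/6J. Every A/J library lay below all 6 others, whereas BALB/c and C57BL/6J overlapped. A/J was below BALB/c by 2.284-fold (log2 change -1.19, SE 0.25, adjusted p = 0.0427). The difference from C57BL/6J was not called (log2 change -0.74, SE 0.25, adjusted p = 0.191), but was called without C57BL/6J 3.

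The Hspb1 call in A/J minus BALB/c was lost in 10 of 21 alternative settings. Among single libraries left out, the adjusted p was 0.139 without A/J 1, 0.16 without A/J 2, 0.0554, 0.206 and 0.218 without BALB/c 1, 2 and 3, and 0.0648 without C57BL/6J 1. After GC correction the log2 change was -0.74 (adjusted p = 0.302), and Hspb1 has the highest GC content of the 63 genes, 61.7%. Of its 31-mers 55.4% were found at other loci, the pseudogene Hsp25-ps1 (52.3%) and Gm9817 (41.9%). The 9 lens markers in the tables, of 10 listed and none at 0, summed to 94201 to 104354 RPKM in A/J, 118189.6 to 124833 RPKM in BALB/c and 74429.7 to 97154 RPKM in C57BL/6J. All 8 markers of surface epithelium were measured, with none at 0, and summed to 5660.3 to 6940.7 RPKM in A/J, 5903.3 to 7067.5 RPKM in BALB/c and 5091.7 to 7598.7 RPKM in C57BL/6J. In A/J minus BALB/c, Gluld1 of the lens list and Krt13 and Krt15 of the epithelial list were called lower. Gluld1 was also called lower in A/J minus C57BL/6J, where the median log2 change of the lens list was 0.348. The 13 extraocular muscle markers measured summed to 1506.6 to 2251.2 RPKM in A/J and 1411.4 to 1776.5 RPKM in BALB/c. In C57BL/6J their sum was 1784.7 to 1985.8 RPKM. Of the muscle list, Actn3 was called higher in A/J minus BALB/c. The part of GC content, shared sequence or cell makeup in the Hspb1 difference was not tested.

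The Hspb1 promoter window (chr5:135887669-135887968, plus strand, GRCm38.p6) is shown because this gene was called and its window holds GAANNTTC at 2 places, marked in capitals.
Hspb1: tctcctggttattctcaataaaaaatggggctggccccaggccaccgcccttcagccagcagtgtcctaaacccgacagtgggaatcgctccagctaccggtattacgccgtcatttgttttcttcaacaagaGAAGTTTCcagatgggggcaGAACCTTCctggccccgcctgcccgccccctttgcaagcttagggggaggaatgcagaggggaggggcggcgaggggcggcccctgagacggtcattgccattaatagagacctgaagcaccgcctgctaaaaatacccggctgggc
A match is only a description of these letters.

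Hspb6 and Hspb8 were abundant as well. Hspb6 (Hsp20) was at 64.41, 67.96 and 56.8 RPKM in A/J, at 66.67, 61.6 and 60.17 RPKM in BALB/c, and at 106.07, 96.87 and 65.44 RPKM in C57BL/6J. C57BL/6J 1 and C57BL/6J 2 stood above all others and C57BL/6J 3 fell among them. Hspb6 was called in A/J minus C57BL/6J once C57BL/6J 3 was left out. Hspb8 (Hsp22), which acts with Bag3 in selective autophagy, was at 17.71, 17.55 and 18.46 RPKM in A/J, at 20.16, 19.35 and 20.37 RPKM in BALB/c, and at 24.11, 25.9 and 23.68 RPKM in C57BL/6J. The A/J libraries were the lowest 3, but the log2 changes of -0.34 against C57BL/6J (adjusted p = 0.219) and -0.22 against BALB/c (adjusted p = 0.3) were not called. Hspb2, a muscle form, was at 8.63 to 11.58 RPKM in A/J, 11.02 to 12.72 RPKM in BALB/c and 12.94 to 14.81 RPKM in C57BL/6J. Hspb7, known from heart, ranged over 5.4 to 12.9 RPKM, and Hspb3 over 2.04 to 5.6 RPKM with the third widest within-strain spread (SD 0.55 on the log2 scale). For A/J minus C57BL/6J, 5 of 7 Hspb log2 changes lay below 0 (median -0.34, against -0.01 over all genes). The 7 include Hspb11, which is no chaperone. After GC correction the changes in this comparison were -0.35 for Hspb1, -0.02 for Hspb2 and -0.26 for Hspb8. The part of GC content in the Hspb values was not tested. The alpha crystallins Cryaa and Cryab, small heat shock proteins of the lens, were at 18390.9 to 53088.5 RPKM and 1891.7 to 8138.5 RPKM, far above any Hspb gene. Neither was called, with the smallest adjusted p for Cryaa in BALB/c minus C57BL/6J (log2 change 1.04, adjusted p = 0.0825). Both were lowest in C57BL/6J 3. Cryaa was called in that comparison without C57BL/6J 2, next to 2.45% of all genes. Without A/J 3 and C57BL/6J 3 both were called there (14.9% of all genes), and Cryaa also in A/J minus BALB/c (59.9% of all genes).

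In mitochondria, Hspe1 was higher in BALB/c. It encodes Hsp10, the lid of the Hsp60 folding chamber. Hspe1 was at 18.3, 19.18 and 16.8 RPKM in A/J, at 29.05, 26.71 and 30.4 RPKM in BALB/c, and at 16.21, 22.6 and 18.53 RPKM in C57BL/6J. All BALB/c libraries lay above all others, and A/J and C57BL/6J overlapped. It was higher in BALB/c than in C57BL/6J by 1.695-fold (log2 change 0.76, SE 0.16, adjusted p = 0.0381). The A/J minus BALB/c difference of -0.72 just missed the threshold (SE 0.16, adjusted p = 0.0547) and A/J minus C57BL/6J was near 0 (adjusted p = 0.878).

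The Hspe1 call in BALB/c minus C57BL/6J was lost in 11 of 21 settings. With 1 library left out the adjusted p was 0.0807 without A/J 1, 0.059 without A/J 2, 0.152, 0.128 and 0.192 without BALB/c 1, 2 and 3, 0.123 without C57BL/6J 1 and 0.0752 without C57BL/6J 3. With the replicate block it was 0.0503. In A/J minus BALB/c, by contrast, a call was gained in 5 of 21 settings, among them the fit of only those strains (adjusted p = 0.0206) and the omissions of A/J 3 (0.0228), C57BL/6J 2 (0.0251) and C57BL/6J 3 (0.0351). Of the 31-mers of Hspe1, 48.1% were found at other loci, 44.9% at the annotated locus AC117239.2. The lens marker sums given for Hspb1 were also higher in every BALB/c library than in any A/J or C57BL/6J library. Neither was tested for its part in the Hspe1 difference.

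Hspd1, which encodes Hsp60, the chamber itself, was at 30.82, 33.47 and 19.23 RPKM in A/J, at 26.85, 20.78 and 22.97 RPKM in BALB/c, and at 26.92, 22.76 and 21.35 RPKM in C57BL/6J. The strains overlapped, and Hspd1 was not called (adjusted p from 0.428 to 0.85). It shared 50.1% of its 31-mers, mostly with the pseudogene Hspd1-ps3 (46.5%). The genes lie head to head, and their promoter windows have 285 of 300 bases in common on opposite strands, so the same stretch is shown once, as the Hspe1 window (chr1:55087898-55088197, plus strand, GRCm38.p6). Capitals mark 2 overlapping matches to a heat shock element of 3 units, searched as TTC, GAA and TTC with any 2 bases between neighbours.
Hspe1: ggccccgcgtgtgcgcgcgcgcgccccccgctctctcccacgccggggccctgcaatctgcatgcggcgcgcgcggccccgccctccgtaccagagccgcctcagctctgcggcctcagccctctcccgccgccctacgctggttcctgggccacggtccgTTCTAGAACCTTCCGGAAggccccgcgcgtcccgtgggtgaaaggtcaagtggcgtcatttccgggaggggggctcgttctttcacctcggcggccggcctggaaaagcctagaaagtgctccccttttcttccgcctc
Those letters were found on either strand for 4 of the 52 genes, Hspe1, Hspd1, Hsph1 and Dnajb6. By window, they stood in 0.603% of 32851. Of these 4 genes, Hspe1 was called in BALB/c minus C57BL/6J and the other 3 in no comparison.

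The remaining mitochondrial genes were not called. Hspa9 (mortalin), the Hsp70 of the matrix, was at 70.45, 72.83 and 61.47 RPKM in A/J, at 60.22, 48.09 and 51.33 RPKM in BALB/c, and at 65.08, 60.8 and 62.22 RPKM in C57BL/6J, with A/J above BALB/c in every library as deposited but not after scaling (log2 change 0.29, adjusted p = 0.258). Dnaja3 (Tid1), a J-protein of the matrix, was at 20.81 to 25.35 RPKM in all libraries except C57BL/6J 3, where it was at 45.57 RPKM. Dnajc15, a J-protein of the inner membrane, was at 23.27, 28.27 and 19.0 RPKM in A/J, at 30.21, 24.33 and 29.81 RPKM in BALB/c, and at 17.56, 20.63 and 19.1 RPKM in C57BL/6J. BALB/c lay above C57BL/6J in every library, with the nearest miss in that comparison (log2 change 0.72, SE 0.18, adjusted p = 0.0753), and Dnajc15 was called in 6 of 21 settings. Dnajc19, a J-protein of the import motor, was at 10.1, 8.37 and 7.53 RPKM in A/J, at 14.43, 11.75 and 13.91 RPKM in BALB/c, and at 8.32, 6.62 and 15.12 RPKM in C57BL/6J, where C57BL/6J 3 again stood alone. Over the 8 mitochondrial genes, a group chosen after their values were seen, the median log2 change was 0.07 in A/J minus C57BL/6J, 0.27 in BALB/c minus C57BL/6J and -0.13 in A/J minus BALB/c.

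In the ER, Dnajc10 was lower in A/J. It encodes ERdj5, a J-protein with thioredoxin domains that reduces disulfide bonds of misfolded proteins before their export and degradation, together with BiP, Edem1 and Sel1l. Dnajc10 was at 7.67, 8.0 and 6.95 RPKM in A/J, at 21.05, 18.98 and 19.29 RPKM in BALB/c, and at 19.63, 20.13 and 16.7 RPKM in C57BL/6J. All A/J libraries lay far below the other 6, whose deposited values overlapped between strains. Dnajc10 was lower in A/J than in C57BL/6J by 2.228-fold (log2 change -1.16, SE 0.15, adjusted p = 0.00307) and lower than in BALB/c by 2.644-fold (log2 change -1.40, SE 0.15, adjusted p = 0.00154). The BALB/c minus C57BL/6J change of 0.25 was not called (adjusted p = 0.544).

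Both calls of Dnajc10 were kept in all 21 settings, with log2 changes from -1.37 to -1.06 against C57BL/6J and from -1.65 to -1.34 against BALB/c. It shared 0.0% of its 31-mers with other loci, the only one of the 4 called genes without shared sequence. The difference between A/J libraries that marked other genes was small here, 0.20 on the log2 scale between the mean of A/J 1 and A/J 2 and A/J 3. Its partners Edem1 and Sel1l were not called. Edem1 was at 4.0 to 4.33 RPKM in A/J, 3.71 to 4.14 RPKM in BALB/c and 3.83 to 4.64 RPKM in C57BL/6J, and Sel1l was at 13.23 to 15.19 RPKM in all libraries except C57BL/6J 3 (29.04 RPKM). The Dnajc10 window (chr2:80315216-80315515, plus strand, GRCm38.p6) is shown because this call was among the most stable, with capitals on its match to TTCNNGAA, the tail-to-tail pair of heat shock units.
Dnajc10: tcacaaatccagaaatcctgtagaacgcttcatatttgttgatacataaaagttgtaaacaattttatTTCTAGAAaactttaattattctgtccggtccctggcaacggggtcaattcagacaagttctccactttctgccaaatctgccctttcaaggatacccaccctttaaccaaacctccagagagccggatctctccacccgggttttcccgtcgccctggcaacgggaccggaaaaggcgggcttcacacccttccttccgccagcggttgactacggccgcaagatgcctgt
TTCNNGAA stood in a window of 6 of the 52 genes and in 8.52% of all windows, and every window with the 3-unit letters holds it too.

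The main ER chaperones were not called, and in A/J they split by library. Hspa5 was at 201.57, 170.56 and 108.04 RPKM in A/J, at 110.59, 106.83 and 106.06 RPKM in BALB/c, and at 147.83, 149.69 and 167.14 RPKM in C57BL/6J. BALB/c lay below C57BL/6J in every library (log2 change -0.34, adjusted p = 0.574), and A/J 3 was at the BALB/c level while A/J 1 and A/J 2 were above C57BL/6J. Hsp90b1 was at 202.99, 181.64 and 94.25 RPKM in A/J, at 126.21, 98.74 and 100.94 RPKM in BALB/c, and at 146.23, 131.24 and 86.81 RPKM in C57BL/6J. It had the same split of A/J, and C57BL/6J 3 was lowest of all. Hspa5 was called without A/J 3 in both comparisons with A/J, and Hsp90b1 only with both A/J 3 and C57BL/6J 3 left out.

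The ER J-proteins Dnajb9 (ERdj4), Dnajb11 (ERdj3), Dnajc1 (ERdj1) and Dnajc3 (p58IPK) were not called. Dnajb9 was at 22.29, 25.47 and 10.56 RPKM in A/J, at 12.91, 9.94 and 11.07 RPKM in BALB/c, and at 18.43, 13.84 and 7.75 RPKM in C57BL/6J, the second widest within-strain spread of the 63 genes (SD 0.57 on the log2 scale). Dnajb11 ranged over 16.4 to 23.39 RPKM, Dnajc3 over 13.82 to 20.08 RPKM and Dnajc1 over 5.06 to 7.09 RPKM. Hspa13, an Hsp70 of microsomes, was at 16.23, 18.26 and 10.13 RPKM in A/J, at 7.99, 7.31 and 7.13 RPKM in BALB/c, and at 11.43, 8.96 and 6.54 RPKM in C57BL/6J. All A/J libraries of Hspa13 lay above all BALB/c libraries (log2 change 0.84, adjusted p = 0.16). The 8 ER genes, a group also chosen after their values were seen, had a median log2 change of 0.15 in A/J minus C57BL/6J, 0.00 in BALB/c minus C57BL/6J and 0.31 in A/J minus BALB/c.

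Hspa5, Hsp90b1 and Dnajc3 share a promoter motif. The ER stress response element was searched on both strands as CCAAT, any 9 bases and CCACG. It stood in a window of these 3 of the 52 genes and in 0.119% of all windows (39 of 32851). Stretches of 100 bases around it are shown from Hspa5 (chr2:34771985-34772084, plus strand), Hsp90b1 (chr10:86705595-86705694, minus strand) and Dnajc3 (chr14:118937787-118937886, plus strand), with the motif in capitals. The Hsp90b1 window holds 2 matches, of which 1 is in the stretch shown.
Hspa5: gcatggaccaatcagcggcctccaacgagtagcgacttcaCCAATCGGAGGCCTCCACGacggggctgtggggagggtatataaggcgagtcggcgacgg
Hsp90b1: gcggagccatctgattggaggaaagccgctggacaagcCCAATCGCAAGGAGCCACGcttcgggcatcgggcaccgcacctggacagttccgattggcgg
Dnajc3: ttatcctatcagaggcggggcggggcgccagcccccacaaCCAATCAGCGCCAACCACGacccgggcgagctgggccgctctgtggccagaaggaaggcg
All 3 genes were lower in A/J 3 than in A/J 1 or A/J 2, but by unequal amounts. On the log2 scale the mean of A/J 1 and A/J 2 exceeded A/J 3 by 0.82 for Hspa5, 1.07 for Hsp90b1 and 0.24 for Dnajc3.

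The cytosolic J-proteins of the A and B types are the general partners of Hspa8. Dnaja2 was at 86.99, 91.53 and 46.29 RPKM in A/J, at 46.65, 37.81 and 40.96 RPKM in BALB/c, and at 73.75, 55.19 and 43.17 RPKM in C57BL/6J, so that A/J 1 and A/J 2 stood above every other library. Its A/J minus BALB/c change of 0.71 was not called (SE 0.30, adjusted p = 0.231) and was called without A/J 3. Dnaja1, a farnesylated relative, was at 19.89, 22.53 and 9.97 RPKM in A/J, 11.68 to 14.08 RPKM in BALB/c and 12.23 to 16.26 RPKM in C57BL/6J. Dnaja4 was at 14.05 to 17.56 RPKM in A/J, 12.27 to 12.69 RPKM in BALB/c and 15.69 to 18.56 RPKM in C57BL/6J, and on scaled values BALB/c lay below both other strains in every library without a call (adjusted p = 0.29 and 0.571).

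Dnajb1, the stress-inducible Hsp40 and main partner of the inducible Hsp70, was not called. On scaled values its A/J libraries all lay above its C57BL/6J libraries (log2 change 0.24, adjusted p = 0.318). It was at 57.4, 47.16 and 56.49 RPKM in A/J, at 42.83, 47.03 and 42.84 RPKM in BALB/c, and at 47.14, 47.67 and 51.27 RPKM in C57BL/6J (adjusted p from 0.318 to 0.947). Dnajb12, a J-protein of the ER membrane that faces the cytosol, was at 14.87 to 23.5 RPKM in A/J, 19.22 to 24.87 RPKM in BALB/c and 19.81 to 21.95 RPKM in C57BL/6J. Dnajb4 was at 18.68, 22.6 and 9.18 RPKM in A/J, 8.22 to 10.04 RPKM in BALB/c and 11.97 to 19.55 RPKM in C57BL/6J. The deposited description beside Dnajb5 names member 6 of the family and that beside Dnajb6 names member 5, so which gene each row holds is uncertain. Dnajb5 ranged over 5.72 to 14.46 RPKM and Dnajb6 over 2.26 to 4.91 RPKM. No Dnaja or Dnajb gene was called by limma in any comparison, and 1, Dnaja2 in A/J minus BALB/c, had an unadjusted p under 0.05.

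Several J-proteins are known from neurons. Dnajc5 (cysteine string protein), which guards synaptic vesicle proteins, was at 54.26, 50.58 and 72.39 RPKM in A/J, at 62.05, 63.63 and 63.08 RPKM in BALB/c, and at 63, 72.78 and 78.36 RPKM in C57BL/6J, with no call (adjusted p from 0.47 to 0.997). Dnajb2 (Hsj1), which binds ubiquitin, was at 55.62, 46.12 and 62.86 RPKM in A/J, at 56.88, 58.64 and 56.35 RPKM in BALB/c, and at 58.22, 74.2 and 129.93 RPKM in C57BL/6J. Dnajc6 (auxilin), the clathrin-uncoating partner of Hspa8, was at 20.32, 22.05 and 19.44 RPKM in A/J, at 17.58, 16.07 and 14.91 RPKM in BALB/c, and at 19.18, 19.1 and 72.73 RPKM in C57BL/6J. In Dnajb2 and Dnajc6 the high value was that of C57BL/6J 3 alone, and Dnajc6 had the widest within-strain spread of the 63 genes (SD 0.58 on the log2 scale). Dnajc6 was not called in any comparison (adjusted p from 0.516 to 0.677).

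Other Dnajc genes are known from varied tasks. Dnajc8, of the splicing machinery, was at 60.25, 63.01 and 38.65 RPKM in A/J, at 54.54, 43.75 and 48.29 RPKM in BALB/c, and at 54.82, 45.03 and 50.2 RPKM in C57BL/6J. Dnajc7, which links Hsp70 to Hsp90, was at 38.16 to 53.62 RPKM in A/J, 34.74 to 42.8 RPKM in BALB/c and 41.3 to 47.54 RPKM in C57BL/6J. The strains overlapped in both genes. Dnajc9, a histone chaperone, was among the steadiest at 16.99 to 20.98 RPKM. Dnajc12, a partner of aromatic amino acid hydroxylases, was at 34.35, 40.98 and 20.2 RPKM in A/J, 23.99 to 26.61 RPKM in BALB/c and 32.22, 25.52 and 16.52 RPKM in C57BL/6J. The 23 Dnajc genes had median log2 changes of 0.09 in A/J minus C57BL/6J, 0.16 in BALB/c minus C57BL/6J and 0.00 in A/J minus BALB/c, with Dnajc10 the only one called.

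Among J-proteins with other tasks, Dnajc21 (ribosome assembly) was at 19.45, 19.85 and 12.31 RPKM in A/J, 9.75 to 12.97 RPKM in BALB/c and 12.07 to 16.36 RPKM in C57BL/6J, and Dnajc24 (diphthamide synthesis) ranged over 9.43 to 15.92 RPKM. Dnajc11, a J-protein of mitochondria, ranged over 14.29 to 20.16 RPKM, and A/J lay above BALB/c in every library without a call (log2 change 0.17, adjusted p = 0.408). Dnajc30, also mitochondrial, was at 9.46, 7.99 and 13.28 RPKM in A/J, at 13.61, 16.58 and 15.92 RPKM in BALB/c, and at 11.26, 14.3 and 14.73 RPKM in C57BL/6J. All A/J libraries of Dnajc30 lay below all BALB/c libraries (log2 change -0.66, adjusted p = 0.126). Dnajc28 was at 5.05 to 7.35 RPKM in A/J, 4.67 to 4.73 RPKM in BALB/c and 6.13 to 10.54 RPKM in C57BL/6J, with BALB/c lowest in every library and no call (adjusted p = 0.229 in BALB/c minus C57BL/6J). Dnajc4 was at 18.94 to 20.46 RPKM in A/J, 21.71 to 26.85 RPKM in BALB/c and 19.75 to 23.01 RPKM in C57BL/6J, Dnajc14 ranged over 15.17 to 19.57 RPKM and Dnajc18 over 11.37 to 14.16 RPKM. Dnajc16 (4.58 to 10.42 RPKM), Dnajc17 (8.27 to 13.7 RPKM) and Dnajc25 (3.23 to 7.1 RPKM) overlapped between strains as deposited.

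The genes that only share the name were not called either. Hspg2 was at 3.78, 2.76 and 7.31 RPKM in A/J, at 6.17, 7.74 and 6.44 RPKM in BALB/c, and at 3.72, 5.8 and 5.78 RPKM in C57BL/6J. BALB/c lay above C57BL/6J in every library (log2 change 0.56, SE 0.30, adjusted p = 0.472). Hspb11 ranged over 12.92 to 23.45 RPKM in A/J, 15.88 to 19.63 RPKM in BALB/c and 11.1 to 18.8 RPKM in C57BL/6J, and Hspbap1 over 1.13 to 1.59 RPKM in all libraries.

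**Figure D3:**
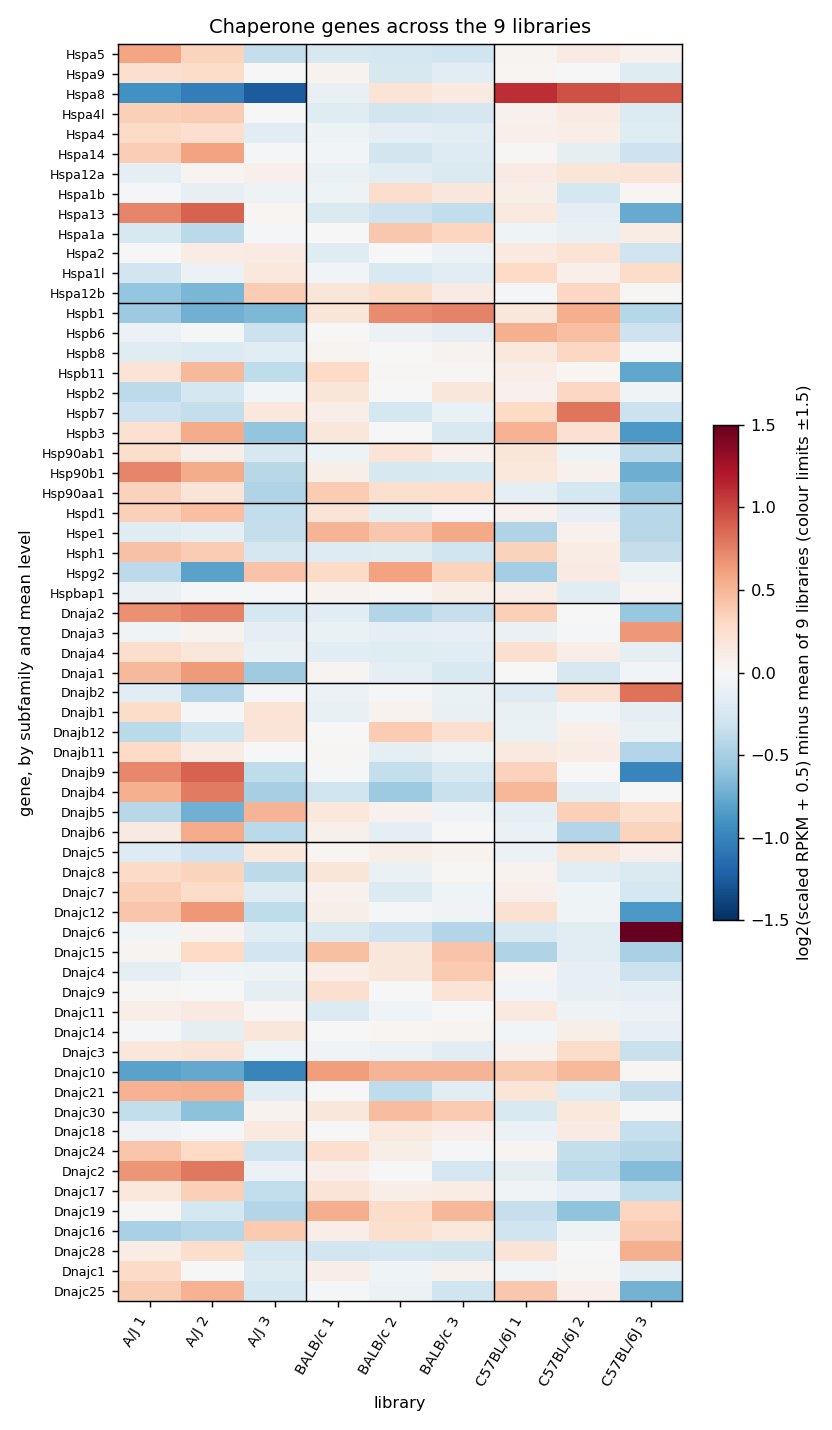
Log2(scaled RPKM + 0.5) of 63 genes in the 9 libraries, each gene minus its mean, by subfamily and mean level, with colours ending at ±1.5. Hspa8 and Dnajc10 change colour between strains, while many other genes change between A/J 1 and 2 and A/J 3, or in C57BL/6J 3.

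Libraries of a strain differed widely in these genes. On scaled values A/J 1 or A/J 2 was the highest of the 9 libraries for 11 and 18 of the 63 genes, and C57BL/6J 3 was the lowest for 25. The mean of A/J 1 and A/J 2 exceeded A/J 3 by more than 0.5 on the log2 scale for 21 genes and lay below it by more than 0.5 for 6, from 1.18 for Dnajb9 to -1.08 for Dnajb5. This difference followed GC content, with a Spearman correlation of -0.72 over the 63 genes and -0.71 over 12695 genes, points that share the same libraries. In C57BL/6J 3 against the mean of C57BL/6J 1 and C57BL/6J 2, differences ran from 1.72 for Dnajc6 to -1.23 for Hspb3, with a correlation with GC content of 0.27 over the 63 genes and 0.38 over 12695 genes. Within BALB/c the differences of the mean of BALB/c 2 and BALB/c 3 from BALB/c 1 stayed between -0.33 and 0.54, with a correlation with GC content of 0.55 over the 63 genes and 0.64 over 12695 genes. The median within-strain SD over all genes was 0.26 for A/J, 0.1 for BALB/c and 0.25 for C57BL/6J on the log2 scale.

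**Figure D4:**
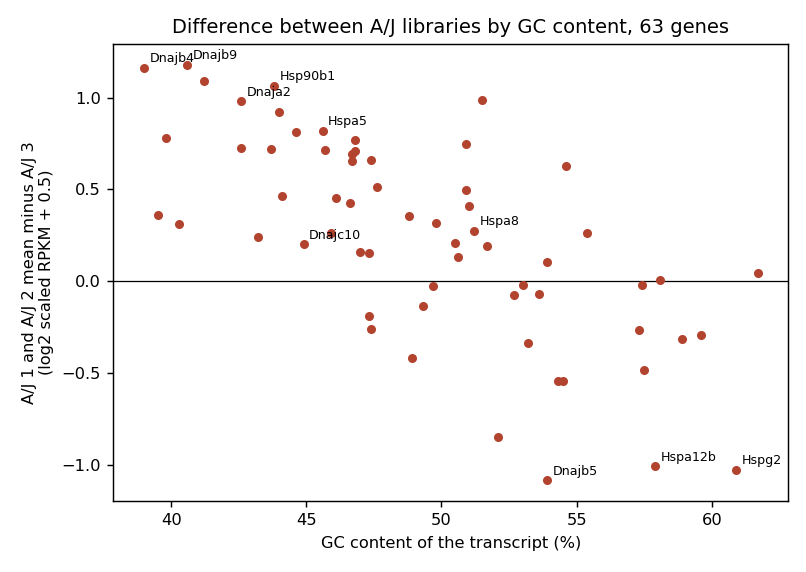
Mean of A/J 1 and A/J 2 minus A/J 3 (log2 scaled RPKM + 0.5) against the GC content of the transcript in %, for 63 genes (points). AT-rich Dnajb9 (1.18), Dnajb4 (1.16) and Hsp90b1 (1.07) lie high and GC-rich Hspg2 (-1.03) and Hspa12b (-1.01) low, with Dnajc10 (0.20) and Hspa8 (0.28) between them. Dnajb5, at 53.9% GC, is the lowest (-1.08). Some genes of higher GC content than Dnajb5 do not lie low, such as Hspb1 (0.04), Hspa1b (0.01) and Dnajc17 (0.63).

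Related copies were common among the called genes. At least 20% of 31-mers occurred at another locus for 9 of the 63 tested genes, which were Hspa8 (73.9%), Hspa1b (68.1%), Hspa1a (65.4%), Hspb1 (55.4%), Hsp90aa1 (54.1%), Hspd1 (50.1%), Hspe1 (48.1%), Dnajc17 (33.3%) and Dnajb6 (23.7%). Of these 9, 3 were called in at least 1 comparison, and of the other 54, 1 was. Over all genes, calls were likewise more frequent with such sharing. In A/J minus C57BL/6J, 9.22% of 629 genes with shared sequence and 2.37% of 12059 others were called. The shares were 17.0% and 2.34% in BALB/c minus C57BL/6J, and 17.0% and 1.7% in A/J minus BALB/c.

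**Figure D5:**
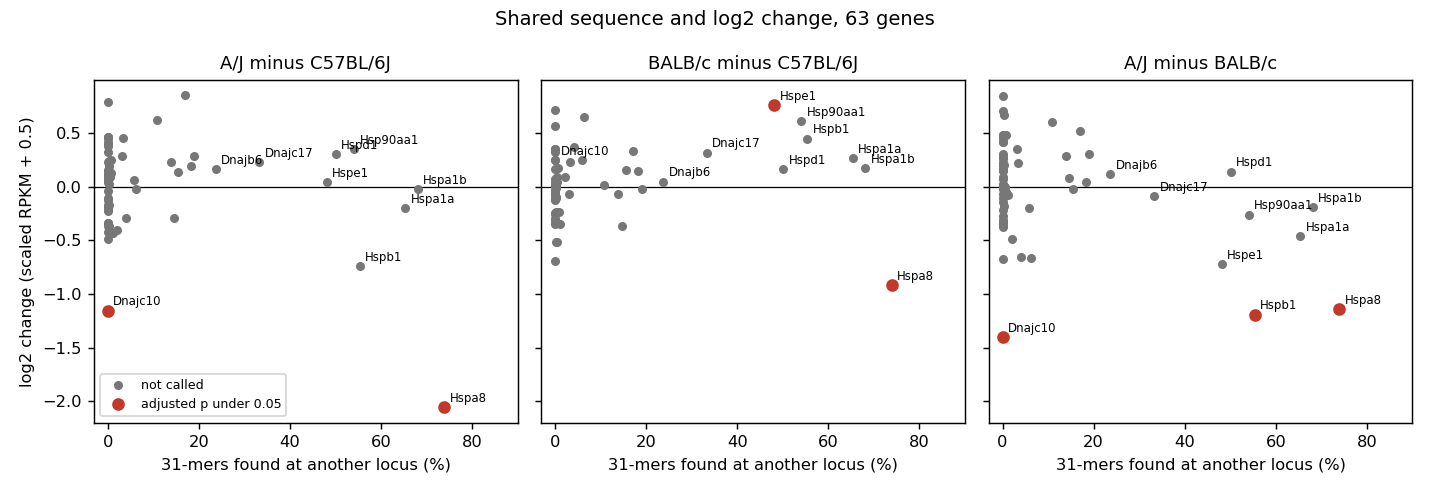
Log2 change (log2 scaled RPKM + 0.5) against the share of a gene's 31-mers that is found at another locus in %, for 63 genes, with a panel for each of the 3 comparisons. Red points are called, and of the called genes only Dnajc10 (0.0%) lies at the left edge while Hspa8 (73.9%), Hspb1 (55.4%) and Hspe1 (48.1%) lie to the right.

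The counts for genes that work with these chaperones depended on A/J 3 as well. Neither the heat shock factor genes Hsf1, Hsf2 and Hsf4 nor Hsbp1, which encodes a heat shock factor binding protein, were called by limma. Only Hsf4 in BALB/c minus C57BL/6J had an unadjusted p under 0.05, as had 13.8% of all genes. Hsf1 was called in both comparisons with A/J without A/J 3. The levels of Hsf1, the main stress regulator, were 11.42 to 17.49 RPKM in A/J, 14.21 to 15.71 RPKM in BALB/c and 15.76 to 20.0 RPKM in C57BL/6J. Hsf4, the factor of the lens, was at 15.95 to 30.21 RPKM in A/J, 25.56 to 35.16 RPKM in BALB/c and 19.19 to 27.44 RPKM in C57BL/6J. Among 35 cochaperones 1 was called, Pih1d1, a subunit of an Hsp90 adaptor. Without A/J 3 there were 11 calls among the 35 in A/J minus C57BL/6J, 1 in BALB/c minus C57BL/6J and 7 in A/J minus BALB/c. Of all genes, 28.3%, 4.95% and 34.7% were then called in that order. Pih1d1 was at 36.87, 33.79 and 30.64 RPKM in A/J, at 33.0, 34.46 and 34.25 RPKM in BALB/c, and at 26.01, 20.68 and 22.91 RPKM in C57BL/6J. It was higher in A/J (log2 change 0.64, adjusted p = 0.0428) and in BALB/c (0.72, adjusted p = 0.0235) than in C57BL/6J, and these calls, which share the C57BL/6J libraries, were lost in 12 and 7 of 21 settings. After GC correction, for example, the log2 change was 0.93 in A/J (adjusted p = 0.0846, and 0.0379 with the replicate block as well) and 0.67 in BALB/c (adjusted p = 0.192).

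None of 16 chaperonin and prefoldin genes, which fold actin and tubulin, was called by limma in any comparison. An unadjusted p under 0.05 was found for 2, 1 and 1 of them in A/J and in BALB/c against C57BL/6J and in A/J against BALB/c. Of all genes, 17.5%, 13.8% and 20.9% had such a p in that order. Without A/J 3, 28.3% of all genes were called in A/J minus C57BL/6J and 34.7% in A/J minus BALB/c. Of these 16 genes, 9 were then called against C57BL/6J, among them Cct2, Cct3, Cct8 and Tcp1, and 5 against BALB/c. Their median log2 change was 0.37 in A/J minus C57BL/6J, 0.18 in BALB/c minus C57BL/6J and 0.24 in A/J minus BALB/c, against -0.01 over all genes in each. The sum of their RPKM was 1429.7, 1470.9 and 976.3 in A/J, 1084.5, 1044.2 and 1079.1 in BALB/c, next to 1271.0, 1043.7 and 875.0 in C57BL/6J, with A/J 3 again apart from A/J 1 and A/J 2. None of 32 tested genes of ER folding and stress was called by limma, with 1, 2 and 2 of them at an unadjusted p under 0.05 and median log2 changes of 0.07, 0.03 and 0.05 in the same order. Without A/J 3, 4 of these 32 ER genes were called in each comparison with A/J, next to 28.3% and 34.7% of all genes. From a list of genes of ubiquitin quality control, Park2, the ubiquitin ligase parkin, was at 2.61, 2.4 and 2.45 RPKM in A/J, at 1.03, 1.17 and 0.93 RPKM in BALB/c, and at 1.22, 1.32 and 1.29 RPKM in C57BL/6J. It was higher in A/J than in C57BL/6J (log2 change 0.83, adjusted p = 0.0083) and also above BALB/c, by 0.91 on the log2 scale (adjusted p = 0.00662). The call against C57BL/6J was lost in 3 of 21 settings, without A/J 1 (adjusted p = 0.055), in the fit of only those strains (0.0707) and with A/J 3 as the only A/J library (0.163). That against BALB/c was lost without BALB/c 3 (adjusted p = 0.0518) and with A/J 3 as the only A/J library (0.152).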

How the data were processed

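Whole-eye poly(A) RNA of 9 libraries, 3 per strain, was analysed. The authors deposited 1 table per library, with values taken here as RPKM because the file headers name no unit and values multiplied by transcript length added up to 99.4% to 101.8% of what RPKM gives in 8 libraries and to 117.4% in C57BL/6J 3. CASAVA 1.7 and GenomeStudio were used with mm9, per the submitters' processing notes. The counting rule is not given in the sources used here.

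Each library was scaled by its size factor (median of ratios, 0.931 to 1.158). Tests used log2(scaled RPKM + 0.5), which understates changes of low genes. Genes with at least 1 RPKM in at least 3 libraries were tested (12920, with 169 left out). limma 3.58.1 in R 4.3.3 (trended prior, robust) fitted strain over all 9 libraries, two-sided, with Benjamini-Hochberg adjustment over all tested genes. Adjusted p-values are from this fit or, where another setting is named, from limma under that setting. Printed levels are unscaled RPKM. Whether strains overlap was judged on the printed values, or on scaled values where so stated.

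Shared 31-mers, GC content and length came from protein-coding transcripts of GENCODE M21, another build than mm9, matched for 12859 genes (98.2%). Promoters came from RefSeq on GRCm38.p6. The 21 alternatives were pseudocount, filter, scaling, samples, prior, replicate block, GC correction and libraries left out. The genes and lists were chosen with earlier results of these data known. The rule named called genes, the 3 highest of each subfamily, those with 50% or more shared 31-mers and the 3 of widest within-strain spread. Groups by organelle and by neurons, and other genes named, were chosen after their values were seen. Calls of the ubiquitin list other than Park2 are not reported here.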

Additional observations from a re-analysis of the deposited data

How the results depend on the processing

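Hspa8 kept its direction and its calls under all 21 alternatives in all 3 comparisons, as did Dnajc10 in both comparisons with A/J. The number of chaperone genes called was 2 in A/J minus C57BL/6J, 2 in BALB/c minus C57BL/6J and 3 in A/J minus BALB/c. In that order, with single replicates left out it ranged from 2 to 17, from 1 to 4 and from 2 to 23. Without A/J 3 and C57BL/6J 3 it was 28, 14 and 39. Calls over all genes moved alike, with 348, 399 and 320 in that order, against 3656, 640 and 4478 without A/J 3 and 5128, 1924 and 7744 without both libraries. In BALB/c minus C57BL/6J, 1 chaperone gene was called with values as deposited and 1 with the replicate block, next to 2.95% and 3.08% of all genes. There were 4 after GC correction alone and 4 with the block added, next to 4.54% and 3.91% of all genes. The block gave 3 calls in each of A/J minus C57BL/6J and A/J minus BALB/c, next to 3.14% and 2.89% of all genes. Replicate numbers were not taken to pair libraries, because same-numbered libraries had correlations of deviations from -0.515 to 0.537, although 6 of 9 libraries correlated best with their own number, a hint from the data and not from the design. Values as deposited moved the median log2 change of all genes to -0.11, -0.17 and 0.05. Calls over all genes were then 156 higher and 225 lower in BALB/c minus C57BL/6J, against 250 and 149 on scaled values, and 95 and 187 in A/J minus BALB/c, against 74 and 246.

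Among the values recomputed, signs changed for uncalled genes only. Hspe1 in A/J minus C57BL/6J (0.04) was -0.0662 with values as deposited and -0.0888 without A/J 1 and A/J 2, and ranged from -0.0528 to 0.2085 with single replicates left out. Hspb2 in A/J minus BALB/c (-0.35) was 0.0247 after GC correction, with or without the block. The cause of these changes was not tested. Where A/J 1 and A/J 2 were both left out, A/J had 1 library, assumed to vary like the other strains. Depth is unknown, and 3 libraries per strain limit what can be called.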
